A study of Mus musculus with 9 samples.

Results

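The comparison set wild-type mice after a mild traumatic brain injury against wild-type mice after a sham operation, over the whole hippocampal transcriptome. It used 6 of the 9 libraries of the series, 3 labelled WT with mTBI and 3 labelled WT with sham, and every gene of the count table. The 3 libraries left aside came from mice with a conditional Tmsb4x knockout. In the injured mice the cortex was hit once by a controlled cortical impact of mild strength, whereas sham mice had the operation without the impact. Mice of both groups carried a transgene for the red fluorescent protein tdTomato in neurons, and live red cells of the trypsin-dissociated hippocampus were collected by flow sorting. The labels give 3 mice to each group, and name neither the promoter of the transgene nor the age, sex or time after injury.

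A controlled cortical impact is a model of concussion and contusion in which a piston deforms the cortex above the hippocampus. The hippocampus lies under the impact site and borders the lateral ventricle, whose choroid plexus makes cerebrospinal fluid and whose wall is lined by ciliated ependymal cells. After such injuries the known responses of the tissue include stress hormone signalling, glial reactivity, immediate early gene expression and altered synaptic transcripts.

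The libraries held 36452443 to 39590872 counts and between 25981 and 26857 genes with at least 1 count, and mitochondrially encoded genes took 4.32% to 5.57% of counts. Of the 55421 genes in the table, 19389 passed the filter on low counts and were tested. CPM below are TMM-scaled levels, that is counts relative to a library of standard size, always in the order of replicates 1, 2 and 3. Differences are log2 of mTBI over sham. Neuronal transcripts were abundant, with the synaptic vesicle fusion gene Snap25 at 1840 ± 292 CPM (SD, n = 3) after mTBI and 1747 ± 4.39 CPM in sham. Transcripts of cells that a neuronal sort should remove were abundant too, the myelin gene Mbp being at 3236 ± 861 and 2961 ± 7.84 CPM and the astrocyte glutamate transporter gene Slc1a2 at 2358 ± 325 and 2951 ± 46.2 CPM. In such bulk samples, fewer cells of a type and less RNA per cell cannot be told apart.

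Several libraries stood apart or went against their labels. All 6 libraries are labelled wild type, yet Tmsb4x, the gene of the actin-monomer-binding peptide thymosin beta 4 (ENSMUSG00000049775, chromosome X, 167207093 to 167209315, GRCm38), was at 888, 556 and 296 CPM after mTBI and at 2.73, 1.68 and 2.23 CPM in the libraries labelled sham. The groups did not overlap and the level varied widely among the injured libraries. The difference was log2 8.03 (SE 0.46, adjusted p = 6.17e-05 in edgeR's quasi-likelihood test with Benjamini-Hochberg adjustment, used throughout), and in an exact permutation test, two-sided, over the 6 libraries p was 0.1, which is the smallest this design allows. Every direction against sham below is therefore one against the libraries labelled sham, and "after mTBI" names the label. The injury label and the Tmsb4x level went together over the 6 libraries, so their shares in a difference cannot be told apart. The second departure concerned sex. Xist, the RNA that coats an inactive X chromosome, was at 833 CPM in mTBI replicate 3 and at 0.898 CPM or less in the other 5 libraries. Ddx3y, a helicase gene on the Y chromosome, was at 0.050 CPM there and at 49.99 to 58.9 CPM in the others. Sex was not part of the fit, and its share in any difference was not tested.

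The spread of the groups was unequal. The biological coefficient of variation, the spread between libraries beyond counting noise, was 19.3% among the mTBI libraries and 3.25% among the sham libraries. Between pairs of sham libraries the variance over genes was 1.48 to 1.60 times that of counting noise, taking 2 counts for each sequenced fragment. It was 11.8 times that noise between mTBI replicates 2 and 3, and 39.2 and 42.7 times between replicate 1 and those 2 libraries. The test took the sham libraries as 3 mice, as labelled, and its p-values would not hold as given if they were technical replicates.

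The transcriptome-wide change was first measured in each library, without a test. The departure of a library is the root mean square of its log2 differences from the mean of the 3 sham libraries over the 19389 genes. It was 0.671 for mTBI replicate 1, 0.510 for replicate 2 and 0.533 for replicate 3. Each sham library, set against the mean of the other 2, had a departure of 0.313 to 0.324, so all 3 injured libraries lay beyond the sham libraries and replicate 1 lay farthest.

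Replicate 1 differed from the other injured libraries in how many genes moved and in which direction. Its median absolute difference was log2 0.30, against 0.13 in replicate 2 and 0.16 in replicate 3. Most genes, 55.6%, were more than 1.2-fold from sham in replicate 1, against 28.8% and 33.1% in the other two and 20.2% to 20.9% in the sham libraries. More than 2-fold higher were 479 genes (2.47% of those tested) in replicate 1, 389 (2.01%) in replicate 2 and 507 (2.61%) in replicate 3, numbers of similar size. More than 2-fold lower were 1187 genes (6.12%) in replicate 1, against 397 (2.05%) and 410 (2.11%). With the same measure on the 15668 genes of at least 1 CPM in 3 libraries, where counting noise is smaller, 532 genes were more than 2-fold lower in replicate 1 and 95 and 125 in the others, against at most 28 in a sham library. The plot of departures by library shows the broad centre and the long left flank of replicate 1.

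**Figure D1:**
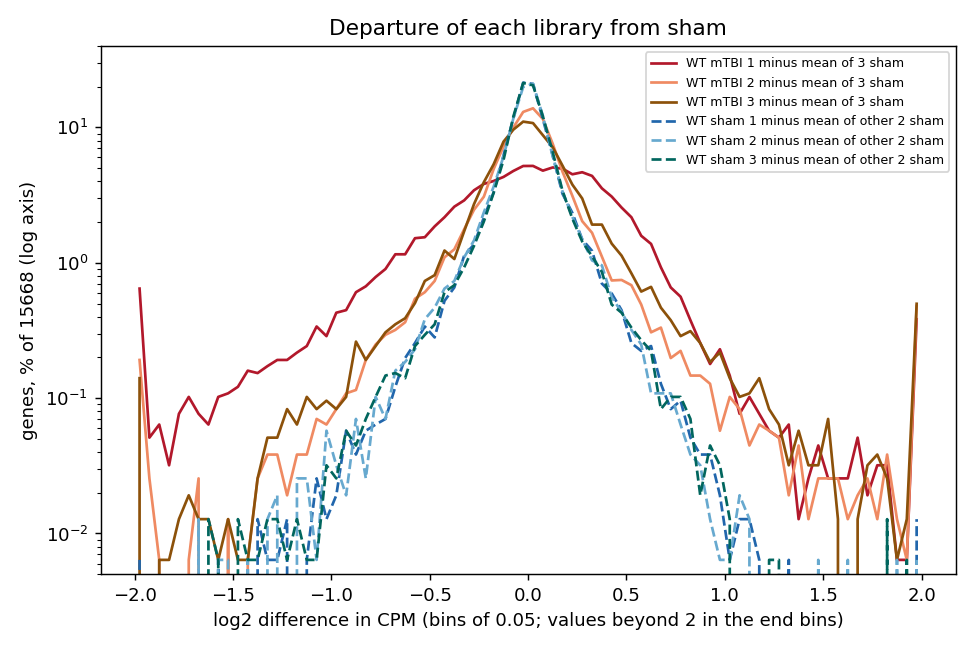
Distribution of log2 differences in CPM from sham (x axis, bins of 0.05, values beyond 2 placed in the end bins) for 15668 genes of at least 1 CPM in 3 libraries, as the percentage of genes in each bin on a log axis. Each solid line is an injured library against the mean of 3 sham libraries and each dashed line a sham library against the mean of the other 2. The line of WT mTBI 1 is the broadest, with 532 genes more than 2-fold lower, against 95 in WT mTBI 2 and 125 in WT mTBI 3.

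Distances between pairs of libraries gave the same order. Sham libraries were 0.357 to 0.371 apart, in root mean square log2 difference. mTBI replicates 2 and 3 were 0.480 apart, less than either was from any sham library (0.550 to 0.578). Replicate 1 was 0.595 from replicate 2 and 0.641 from replicate 3, farther than those 2 libraries were from sham. In a principal component analysis the first component, with 45.2% of the variance, held the sham libraries at 30.6 to 31.4, replicates 2 and 3 at -18.2 and -15.9 and replicate 1 at -59.1.

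**Figure D2:**
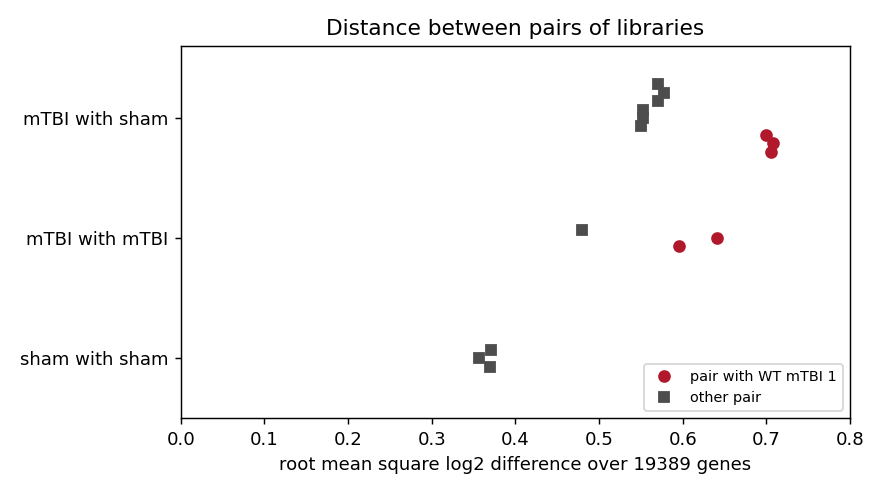
Root mean square log2 difference over 19389 genes (x axis) for each of the 15 pairs of libraries, by kind of pair. Red circles are pairs with WT mTBI 1 and grey squares are the other pairs. The 3 sham pairs lie at 0.357 to 0.371, and the pairs of WT mTBI 1 with the other injured libraries, at 0.595 and 0.641, lie beyond the 6 grey pairs of injured with sham, at 0.550 to 0.578.

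The genes with the largest gains and losses of counts were shared in part by the 3 injured libraries. As a share of all counts, 10.1% were redistributed between genes in replicate 1 relative to the sham mean, 3.54% in replicate 2 and 4.91% in replicate 3, against 1.39% to 1.52% in the sham libraries. In all 3 the largest gain was that of Ttr, the thyroid hormone carrier made by the choroid plexus, at 2909, 4028 and 4088 CPM. In replicate 1 the next gains were the mitochondrial ribosomal RNA mt-Rnr2 (2015 CPM) and mt-Co1 (1995 CPM), and the largest losses were the neuronal noncoding RNA Meg3 (-2076 CPM), the kinase gene Camk2a (-1273 CPM) and the axonal kinesin gene Kif5a (-986 CPM). Enpp2, a phospholipase gene, was the next gain in replicates 2 and 3, at 1670 and 1486 CPM. In replicate 2 the largest loss was that of the myelin gene Mbp (-601 CPM). In replicate 3 Mbp went the other way, gaining 1121 CPM, with mt-Co1 (-741 CPM) and Camk2a (-707 CPM) as the largest losses. Myelin and mitochondrial transcripts thus differed in sign between injured libraries.

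The difference from sham followed gene length in replicate 1. The 13797 protein-coding genes of at least 1 CPM in 3 libraries were split into 10 equal bins by annotated exon length. The median difference in replicate 1 went from log2 0.41 in the bin of shortest genes to -0.37 in the bin of longest. The same medians were 0.035 and -0.032 in replicate 2 and 0.052 and -0.058 in replicate 3. The rank correlation with length across genes, which are not independent, was -0.54 in replicate 1, -0.086 in replicate 2, -0.12 in replicate 3 and between -0.14 and 0.087 in sham libraries set against the other 2. The share of counts in mitochondrially encoded genes was also highest in replicate 1, at 5.57%, and its part in the results was not tested. Values with the length trend removed are given beside the gene lists.

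**Figure D3:**
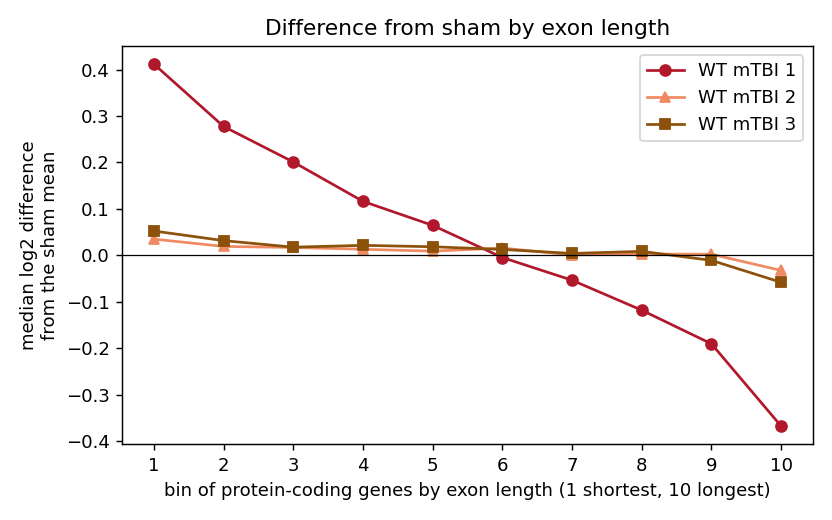
Median log2 difference from the mean of 3 sham libraries (y axis) in 10 bins of 13797 protein-coding genes ordered by exon length (x axis, 1 shortest, 10 longest), 1 line for each injured library. WT mTBI 1 goes from 0.41 to -0.37, and the other 2 libraries stay between 0.052 and -0.058.

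In the test between the groups, 253 of 19389 genes (1.30%) were called at an adjusted p under 0.05, 206 of them higher after mTBI (1.06%) and 47 lower (0.242%). At an unadjusted p under 0.05 there were 2680 genes. Called higher genes changed by more than 2-fold in 146 cases and by more than 4-fold in 94, and called lower genes in 22 and 9. The median difference over all tested genes was log2 0.010, with 51.9% positive. Groups did not overlap in 2338 genes higher after mTBI (12.1%) and in 2304 genes lower (11.9%), so higher genes outnumbered lower ones among the calls while genes with separated groups were nearly even. The 253 called genes held 35.1% of the summed squared difference over all genes.

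The number of calls depended on single libraries. Without mTBI replicate 1 it rose to 1251 (751 higher, 500 lower), and all 253 genes were among them. Of these 1251 genes, 378 higher and 385 lower ones differed by less than 1.5-fold. Without sham replicate 1, 2 or 3 it fell to 98, 101 and 102, with 11, 12 and 12 lower genes, and with the 3 sham libraries summed into 1 sample, a setting chosen after the data were seen in which the spread comes from the injured libraries alone, it was 46, with 42 higher and 4 lower. Without mTBI replicate 2 the calls were 162 higher and 82 lower.

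Within the called genes the 3 injured libraries moved alike in direction. Among the 206 higher genes the median difference from sham was log2 1.57, 1.78 and 1.76 in replicates 1, 2 and 3, and replicate 1 was the smallest of the 3 in 112 genes. Among the 47 lower genes the medians were -1.07, -0.85 and -0.82, and replicate 2 was the smallest change in 28. These genes were chosen by the same contrast, so the values only describe them.

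Of the 15 higher genes named for their small p, 7 were members of the choroid plexus list, genes of the epithelium that moves ions and water into the ventricles. Ttr was at 2926, 4045 and 4105 CPM after mTBI and at 17.6, 16.5 and 17.4 CPM in sham (log2 7.75, SE 0.17, adjusted p = 2.70e-07). Further members of the choroid plexus list were Kcne2, a potassium channel subunit (log2 5.11), Clic6, of the chloride intracellular channel family (4.77), the tight junction gene Cldn2 (4.50), the folate receptor gene Folr1 (5.24), the bicarbonate transporter gene Slc4a5 (7.33) and the fibroblast growth factor co-receptor gene Kl (2.40), with adjusted p between 7.15e-06 and 6.72e-05. In each of these except Ttr the sham level was between 0.105 and 24.1 CPM. All 12 members of that list were tested and 11 were called higher, beside the 1.06% of all genes, and the summed level of the list was 3217 to 4510 CPM after mTBI and 67.9 to 69.8 CPM in sham. Its median was log2 3.98, 4.60 and 4.82 in replicates 1, 2 and 3, so replicate 1 had the smallest rise here, while it had the largest departure over all genes.

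Other higher genes of smallest p are no members of the choroid plexus list. That list is not complete, and the cells that made these transcripts were not determined. Enpp2, which encodes autotaxin and is made by oligodendrocytes as well as by the choroid plexus, was at 1200, 1841 and 1657 CPM after mTBI and at 172 CPM in each sham library (log2 3.19, SE 0.15, adjusted p = 1.99e-05). Igfbp2, a secreted binder of insulin-like growth factors, was at 76.1, 76.6 and 74.9 CPM after mTBI and at 22.2, 19.8 and 23.2 CPM in sham (log2 1.80, SE 0.08, adjusted p = 1.74e-05). Its 3 injured libraries were nearly level (SD 0.904 CPM), although the called members of the choroid plexus list differed among them. The same evenness was seen in Calml4, a calmodulin-like gene, at 13.1, 12.98 and 12.0 against 1.46, 1.49 and 1.89 CPM, and in Steap1, of a family of metalloreductases, at 4.61, 4.23 and 4.28 against 0.260, 0.221 and 0.158 CPM. Drc7, a regulator of ciliary dynein, rose by log2 2.48, the collagen gene Col9a3 by 2.05 and Mfrp, a frizzled-related membrane protein, by 5.63, at adjusted p between 3.20e-05 and 4.92e-05.

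Among genes with an established symbol, the lower genes of smallest p changed less than the higher ones. Pseudogenes and numbered gene models are left out of this set, and some of them were lower by more, as given below. The zinc finger gene Zfp949 (chromosome 9, 88548020 to 88571061) was at 23.7, 23.1 and 21.1 CPM after mTBI and at 68.3, 63.7 and 66.8 CPM in sham (log2 -1.55, SE 0.08, adjusted p = 2.59e-05). Its groups were far apart and both were tight, with SDs of 1.36 and 2.35 CPM. Pura, a nucleic acid-binding protein of neurons, was at 32.4, 41.4 and 31.9 against 76.1, 76.7 and 71.9 CPM (log2 -1.09, SE 0.11, adjusted p = 0.00152).

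Other lower genes act in several compartments of the cell. Gucy1a2, a subunit of the nitric oxide receptor guanylate cyclase, was at 2.00, 5.18 and 2.96 against 14.2, 13.2 and 12.0 CPM (log2 -1.96, SE 0.29, adjusted p = 0.0145). Slc2a5, a fructose transporter gene known as a microglial transcript, was at 2.13, 1.92 and 1.99 against 4.79, 4.91 and 4.89 CPM (log2 -1.27, adjusted p = 0.00405). Both genes had groups that did not overlap, as the rule for naming genes required, with replicate 2 the highest injured library for Gucy1a2 alone. The rest fell by smaller amounts, among them Sec31a of the vesicle coat that leaves the endoplasmic reticulum (log2 -0.71), the ribosome assembly ATPase Nvl (-0.86), the ciliary rootlet gene Crocc (-0.64), the guanine nucleotide exchange factor gene Arhgef19 (-0.80) and the zinc finger gene Zfp950 (-0.64). Mndal, of the interferon-inducible p200 family (-1.08), Strc, which encodes stereocilin of the inner ear (-1.43), the homeobox gene Onecut2 (-0.70), Crhbp, which binds corticotropin-releasing hormone (-0.77), Nbeal1 (-0.57) and Fam208a, a gene-silencing factor (-0.45), completed the 15. Zfp949, Pura, Arhgef19, Sec31a, Nvl and Slc2a5 kept their calls without any one library, and the other 9 lost them without at least sham replicate 1, 2 or 3. Of the genes that kept them, Arhgef19 and Sec31a lost their calls in the fit of all 9 libraries.

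**Figure D4:**
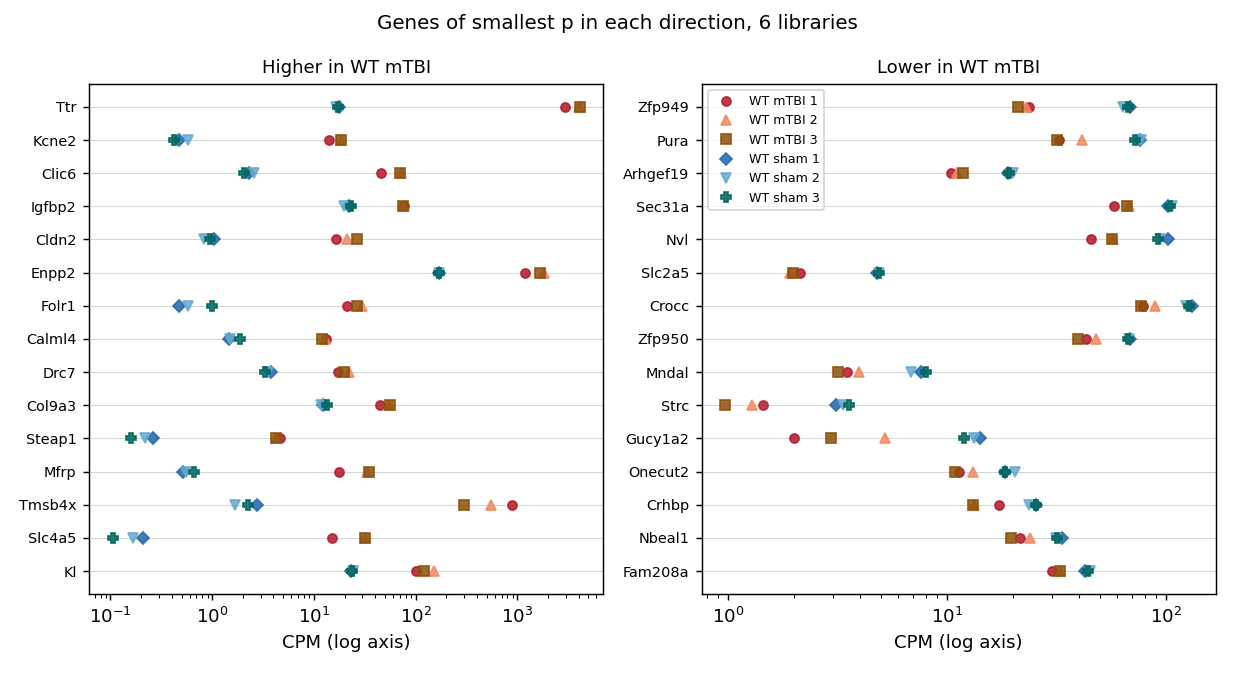
CPM (x axis, log scale) in each of the 6 libraries for the 15 genes of smallest p in each direction among called genes with an established symbol, pseudogenes and numbered gene models left out. Warm colours are injured and cold colours sham libraries. In every gene the groups are apart, which the rule for naming genes required. Of the genes shown, the higher ones differ by 3.49-fold (Igfbp2) or more and the lower ones by at most 3.89-fold (Gucy1a2).

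Some genes whose counts changed lie beside near-identical copies elsewhere in the genome, where a few bases decide which gene a read is counted for. Of the 253 called genes, 20 (7.91%) had a copy of at least 95% identity over at least 50% of the longest transcript, against 1295 (6.68%) of all tested genes. This search was chosen after the calls were seen, and the shares are a description. Below, 60 bases are shown for 3 pairs, picked after their values were seen, in which the pseudogene and its parent gene went opposite ways. The bases that differ are in capitals, read from the transcripts of GENCODE M21 (GRCm38).

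Gm11868: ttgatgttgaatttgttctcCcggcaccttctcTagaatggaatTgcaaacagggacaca
Cyb5r4: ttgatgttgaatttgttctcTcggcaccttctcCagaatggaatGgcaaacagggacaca
Gm12191: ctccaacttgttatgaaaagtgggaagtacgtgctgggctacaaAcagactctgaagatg
Rpl30: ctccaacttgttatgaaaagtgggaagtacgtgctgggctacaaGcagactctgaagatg
Rpl3-ps1: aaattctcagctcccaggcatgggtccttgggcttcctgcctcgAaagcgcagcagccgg
Rpl3: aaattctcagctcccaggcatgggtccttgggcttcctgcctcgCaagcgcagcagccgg

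Gm11868 is a processed pseudogene of chromosome 4 (18844202 to 18845679, minus strand) and Cyb5r4, a gene of a cytochrome b5 reductase, lies on chromosome 9 (87022014 to 87077774). They are 97.98% identical over 1485 aligned bases, and the stretch above covers bases 1261 to 1320 of the pseudogene transcript and 1370 to 1429 from the start codon of Cyb5r4. Gm11868 was listed at 0, 0.077 and 0 CPM after mTBI and at 5.21, 4.99 and 5.31 CPM in sham (adjusted p = 0.000138). Cyb5r4 rose from 20.6 to 32.7 CPM (log2 0.67, SE 0.10, adjusted p = 0.0199, and 0.129 to 0.145 without any one sham library). Thus a loss of the one in all 3 injured libraries stood beside a gain of the other.

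The ribosomal pairs went the reverse way. Gm12191, a processed pseudogene of chromosome 11 (49678710 to 49679057), differs from the ribosomal protein gene Rpl30 of chromosome 15 by 1 mismatch over 348 bases and rose from 0.958 to 20.6 CPM (log2 4.42, SE 0.16, adjusted p = 6.44e-06). Rpl30 itself was at 46.3 CPM after mTBI and 55.5 CPM in sham (log2 -0.26, SE 0.12, adjusted p = 0.361), a difference that did not pass. Rpl3-ps1 of chromosome X, with 2 mismatches to Rpl3 over 1210 bases, rose from 15.8 to 78.4 CPM (log2 2.31, adjusted p = 1.02e-05), while Rpl3 was at 376 and 439 CPM (log2 -0.22, adjusted p = 0.363). These are not the only such genes: Gm7049, a copy of the malic enzyme gene Me1, was at 0.084 CPM after mTBI and 2.68 CPM in sham, and Eno1b, a copy of the glycolysis gene Eno1, rose from 10.4 to 53.1 CPM with Eno1 at 533 and 643 CPM (log2 -0.27, adjusted p = 0.127). The split of reads within each pair is uncertain, so none of these genes can be read as changed on its own. Tmsb4x and the other genes named above had no copy under this rule.

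The positions of the called genes were described next. Another called gene lay within 1000000 bases of 86 of the 253 called genes (34.0%) and of 4991 of the 19389 tested genes (25.7%). The calls on chromosome 9 were 18 higher and 7 lower, 2.25% of its 1111 tested genes, the highest share among the chromosomes. There Cyb5r4 (87022014 to 87077774), Zfp949 (88548020 to 88571061), the noncoding RNA 9430037G07Rik (88595325 to 88599516), Gm37226 (88682932 to 88686186), the cathepsin gene Ctsh (90054152 to 90076089) and the metalloprotease gene Adamts7 (90163069 to 90208071) followed each other. The RNA 9430037G07Rik was at 1.06, 0.692 and 0.970 CPM after mTBI and had no count in any sham library. Gm37226 fell from 6.62 to 2.62 CPM and Adamts7 from 2.57 to 0.791 CPM, while Ctsh rose from 6.37 to 11.4 CPM (log2 0.84, adjusted p = 0.0323). Without any one sham library Cyb5r4, Gm37226, Ctsh and Adamts7 lost their calls (adjusted p from 0.0938 for Gm37226 to 0.193 for Ctsh), and Gm37226 and Adamts7 did so without mTBI replicate 3 as well (0.0516 and 0.0537) and Adamts7 without mTBI replicate 2 (0.0618). This stretch was singled out after its values were seen.

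Stress hormone targets were among the calls outside the ventricular genes. Of 13 tested genes of the glucocorticoid response, 2 were called higher and none lower, beside 1.06% and 0.242% of all genes, 9 were positive and the median was log2 0.23 (0.43, 0.12 and 0.057 in replicates 1 to 3). Sgk1, a kinase gene induced by corticosteroids, was at 81.9, 88.0 and 69.7 CPM after mTBI and at 47.3, 46.9 and 48.3 CPM in sham (log2 0.75, SE 0.09, adjusted p = 0.00606). Per1, which is both a corticosteroid target and a clock gene, was at 96.2, 95.6 and 107 against 73.9, 74.2 and 75.3 CPM (log2 0.42, SE 0.07, adjusted p = 0.0327). No injured library overlapped sham for either gene, as was so for all 253 called genes. Both calls ended without any one sham library, at adjusted p of 0.0533 to 0.0636 for Sgk1 and 0.217 to 0.239 for Per1, and that of Per1 without mTBI replicate 3 (0.0693). Tsc22d3, the leucine zipper gene GILZ, was at 73.7, 54.6 and 60.6 against 43.5, 42.5 and 43.1 CPM. It missed the threshold (log2 0.55, adjusted p = 0.0575), and the mTOR inhibitor gene Ddit4 did so at log2 0.36 (adjusted p = 0.137). The 4 negative members, none called, were Zbtb16 (log2 -0.42), Nr3c2 (-0.21), Nr3c1 (-0.17) and Fkbp5 (-0.13). In each of these the groups did not overlap, beside 11.9% of all genes that were lower without overlap. The list thus did not move in 1 direction.

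Per1 and Dbp were the called genes of the circadian list. Of its 16 tested genes these 2 were called higher and none lower, beside 1.06% and 0.242% of all genes. In this list 11 were positive, and the median was log2 0.073 (0.022, 0.095 and 0.16). Dbp, a transcription factor driven by the clock, was at 52.0, 43.0 and 45.7 against 31.9, 34.6 and 34.4 CPM (log2 0.48, SE 0.09, adjusted p = 0.0449). Its call was lost, like that of Per1, without mTBI replicate 3 (0.0882) and without any one sham library (0.219 to 0.296). Ciart, a clock repressor, was at log2 0.46 (adjusted p = 0.0675) and the nuclear receptor gene Nr1d2 at 0.28 (adjusted p = 0.124), and neither passed. The labels give no hour of collection.

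Lysosomal genes leaned upward. Of 23 tested genes, 21 were positive, and 2 were called higher and none lower, beside 1.06% and 0.242% of all genes. The median was log2 0.13 (0.21, 0.059 and 0.12). The tetraspanin gene Cd63 was at 57.8, 52.9 and 54.2 against 38.6, 36.7 and 39.1 CPM (log2 0.53, SE 0.07, adjusted p = 0.0101). The protease gene Ctsd was at 187, 155 and 173 against 118, 122 and 116 CPM (log2 0.53, SE 0.08, adjusted p = 0.0227). Both were above sham in all injured libraries, Ctsd by log2 0.65, 0.38 and 0.54 in replicates 1, 2 and 3. Ctsl (log2 0.44, adjusted p = 0.0672) and the galactosidase gene Glb1 (0.49, adjusted p = 0.0688) did not pass. Without mTBI replicate 1 the lysosomal calls were 9 higher and none lower, where 3.76% of all genes were called higher. Leaving out any one sham library left no lysosomal call, with adjusted p of 0.0857 to 0.107 for Cd63 and 0.143 to 0.186 for Ctsd, and Ctsd also missed the threshold without mTBI replicate 3 (0.0607).

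Genes of motile cilia were called in part. Of 11 tested members of the ependymal list, 2 were called higher and none lower, beside 1.06% and 0.242% of all genes. In this list 8 were positive and the median was log2 0.30 (0.44, 0.37 and 0.29). Foxj1, the master regulator of motile cilia, was at 17.2, 17.3 and 15.96 against 10.3, 9.27 and 8.47 CPM (log2 0.85, SE 0.11, adjusted p = 0.00606). Cfap126, a ciliary protein gene, rose by log2 1.12 (adjusted p = 0.00948). The call of Foxj1 was lost without sham replicate 2 or 3 (adjusted p up to 0.0578) and that of Cfap126 without any one sham library (0.0530 to 0.0803). The list was not uniform, the dynein gene Dnah12 being at 1.82, 3.28 and 2.24 against 5.13, 4.50 and 3.60 CPM (log2 -0.85, adjusted p = 0.176). The summed level of the list was 56.4 to 68.9 CPM after mTBI and 46.0 to 48.5 CPM in sham, a far smaller shift than that of the choroid plexus list.

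Glial and immune lists gave few calls. Serpina3n, a protease inhibitor gene of reactive astrocytes, was at 116, 102 and 105 against 54.3, 56.7 and 52.98 CPM (log2 0.98, SE 0.08, adjusted p = 0.000368), and kept its call without any one library. It was the 1 called gene among 14 of the reactive astrocyte list, beside 1.06% of all genes called higher. Of the 14, 6 were positive and 8 negative, with medians of -0.42, -0.17 and 0.23 in the 3 libraries. Gfap, the classical filament gene of reactive astrocytes, was at 361, 321 and 515 CPM after mTBI and at 390, 402 and 401 CPM in sham, and so lay below sham in replicates 1 and 2 and above it in replicate 3 (log2 0.0056, adjusted p = 0.989, and log2 -0.22 without replicate 3).

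Microglial genes did not shift as a group. Of 14 tested members of the microglial list none was called, 8 were positive and the median was log2 0.017, with the colony-stimulating factor receptor gene Csf1r at 82.6 ± 14.0 and 81.6 ± 2.05 CPM and the chemokine receptor gene Cx3cr1 at 46.5 ± 4.59 and 52.6 ± 2.14 CPM. Among 11 tested genes of activated microglia 1 was called, beside 0.242% of all genes called lower. It was Spp1, the osteopontin gene, which fell from 9.61, 9.16 and 9.68 CPM in sham to 3.54, 3.90 and 6.02 CPM (log2 -1.08, SE 0.20, adjusted p = 0.0385). That call was lost without mTBI replicate 2 (adjusted p = 0.0999) and without any one sham library (0.180 to 0.203). The interferon list (14 tested), the complement and antigen presentation list (13 tested) and the NF-kB and cytokine list (10 tested) held no call. Their medians were log2 -0.11, -0.043 and -0.47 and differed in sign between injured libraries, the NF-kB list being at -0.51, -0.48 and 0.16. Cytokine genes such as Il1b were below 1 CPM in all 6 libraries.

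Vessel-wall and leptomeningeal genes held 2 of the lower calls. Of 14 tested genes of mural cells and fibroblasts, 11 were negative. Of the 14, 2 were called lower and none higher, beside 0.242% and 1.06% of all genes. The median was log2 -0.21 (-0.47, -0.20 and 0.0060). Slc6a13, a GABA and taurine transporter gene of the meninges, was at 4.03, 5.41 and 7.61 against 12.6, 13.1 and 12.9 CPM (log2 -1.18, SE 0.20, adjusted p = 0.0320). Ptgds, the prostaglandin D synthase gene of meninges and oligodendrocytes, was at 365, 305 and 399 against 508, 510 and 528 CPM (log2 -0.53, SE 0.10, adjusted p = 0.0445). Neither passed without any one sham library, at adjusted p of 0.153 to 0.169 for Slc6a13 and 0.231 to 0.257 for Ptgds, nor Slc6a13 without mTBI replicate 2 (0.0921). The summed level of the list was 614 to 765 CPM after mTBI and 870 to 889 CPM in sham, without overlap. Ptgds alone averaged 356 CPM after mTBI and 515 CPM in sham, so that sum rests largely on it. The 3 positive members, among them Lum (log2 0.54) and Igf2 (0.65), were not called.

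Medians of the myelin list differed in sign among the injured libraries. Of 12 tested oligodendrocyte genes, 11 were positive and Enpp2 alone was called, beside 1.06% of all genes called higher. The library medians were log2 0.14, -0.31 and 0.55. Mbp, which encodes a main protein of myelin, differed by log2 0.13 (SE 0.17, adjusted p = 0.746) between the groups. The summed level of the 12 genes, Enpp2 included, was 7387 to 11724 CPM after mTBI and 7235 to 7281 CPM in sham. The median of the group, log2 0.16, was thus close to that of replicate 1 alone. It rested on replicate 3: without that library the median was log2 -0.066, 2 of 12 genes were positive and Mbp was at log2 -0.072, while Enpp2 kept its call.

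Immediate early genes, which mark recent neuronal activity, were high in some injured libraries and not in others. None of 20 was called, 12 were positive, and the medians were log2 0.75, 0.0013 and 0.24. Fos was at 15.1, 4.44 and 9.70 CPM after mTBI and at 4.09, 4.03 and 3.79 CPM in sham (log2 1.29, SE 0.37, adjusted p = 0.172). Arc, a synaptic plasticity gene, was at 145, 68.9 and 102 against 61.0, 59.5 and 61.9 CPM (log2 0.79, adjusted p = 0.165), and Egr2 at 5.57, 1.13 and 3.16 against 1.04, 1.10 and 0.631 CPM (log2 1.83, adjusted p = 0.175). For all 3 genes replicate 1 was the highest and replicate 2 was next to the sham level. Without mTBI replicate 2 the list had 4 members called higher and none lower, beside 0.81% and 0.41% of all genes then. Without replicate 1 it had 1 called higher and 3 lower, beside 3.76% and 2.50% of all genes.

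Lists of neuronal membrane proteins were mostly negative with few calls. Of 26 postsynaptic glutamate genes 21 were negative and none was called, at a median of log2 -0.18 (-0.34, -0.067 and -0.16). The groups did not overlap in 16 of them, all lower, beside 11.9% of all genes. The glutamate receptor gene Grm3 came closest, at 34.0, 33.9 and 31.1 against 41.5, 42.3 and 44.1 CPM (log2 -0.37, SE 0.07, adjusted p = 0.0625), followed by the scaffold gene Homer1 (-0.31, adjusted p = 0.0867). Without mTBI replicate 1 the list had a median of -0.11 and 7 members were called lower and 1 higher, beside 2.50% and 3.76% of all genes then.

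Adhesion and guidance genes showed the same sign. Of 22 cadherin and protocadherin genes 21 were negative and 1 was called lower, beside 0.242% of all genes. The median was log2 -0.20 (-0.40, -0.15 and -0.13). The called gene, the protocadherin Pcdh19, was at 82.5, 98.2 and 86.9 against 123, 129 and 128 CPM (log2 -0.51, SE 0.08, adjusted p = 0.0250). It missed the threshold without mTBI replicate 3 (adjusted p = 0.0738) and without any one sham library (0.141 to 0.182). Of 25 axon guidance genes 23 were negative and none was called, at a median of -0.21 (-0.46, -0.097 and -0.12). Groups did not overlap in 15 of them, all lower, beside 11.9% of all genes. The netrin receptor genes Unc5d (log2 -0.32, adjusted p = 0.160) and Unc5c (-0.30, adjusted p = 0.197) did not pass.

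Ion channel genes differed by library. Of 32 potassium channel genes 24 were negative and 1 was called, beside 0.242% of all genes called lower. It was Kcnip3, which encodes a channel-interacting calcium sensor, at 66.8, 66.4 and 68.4 against 86.8, 84.9 and 86.9 CPM (log2 -0.36, SE 0.06, adjusted p = 0.0363). The call of Kcnip3 ended without any one library other than mTBI replicate 1, at adjusted p of 0.0797 and 0.0736 without mTBI replicates 2 and 3 and 0.220 to 0.260 without a sham library. Of 23 sodium and calcium channel genes 18 were negative and none was called, and the medians were log2 -0.55, 0.0087 and -0.12, so that the lower level was that of replicate 1 above all. Cacna1e, a voltage-gated calcium channel, was at 366, 591 and 509 against 686, 678 and 666 CPM (log2 -0.47, adjusted p = 0.227).

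Housekeeping lists differed from sham mainly in replicate 1. Cytosolic ribosomal protein genes had medians of log2 0.54, 0.088 and 0.070 in the 3 injured libraries, mitochondrial ribosomal protein genes 0.52, 0.024 and 0.045 and proteasome genes 0.44, 0.031 and -0.026, with no call among 33, 20 and 21 tested genes. The proteasome gene Psmb6, for example, was at 103, 73.2 and 74.5 against 67.4, 66.0 and 62.0 CPM (log2 0.36, adjusted p = 0.280). Chromatin regulators went the other way, at -0.47, -0.0025 and -0.025, with 18 of 20 negative and no call. The helicase gene Atrx was at 187, 235 and 206 against 256, 244 and 252 CPM (log2 -0.26, adjusted p = 0.268). Without replicate 1 the proteasome list had a median of log2 -0.0015 and the chromatin list of -0.020.

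These lists moved in part with the length trend. With the trend removed from each library, a setting chosen after the data were seen, the median went from log2 0.25 to 0.16 for cytosolic ribosomal genes, from 0.16 to 0.095 for the proteasome, from -0.17 to -0.031 for chromatin regulators, from -0.21 to -0.091 for sodium and calcium channels, from -0.21 to -0.089 for axon guidance and from -0.18 to -0.090 for postsynaptic genes. The cadherin list went only from -0.20 to -0.17. In replicates 1, 2 and 3 the medians without the trend were log2 0.35, 0.063 and 0.052 for cytosolic ribosomal genes. They were 0.30, 0.012 and -0.040 for the proteasome and -0.13, 0.047 and 0.031 for chromatin regulators. Replicate 1 thus still lay farthest from 0 in these lists with the trend removed. Called genes then were 263 higher and 84 lower, 38 of the 47 lower genes among them.

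**Figure D5:**
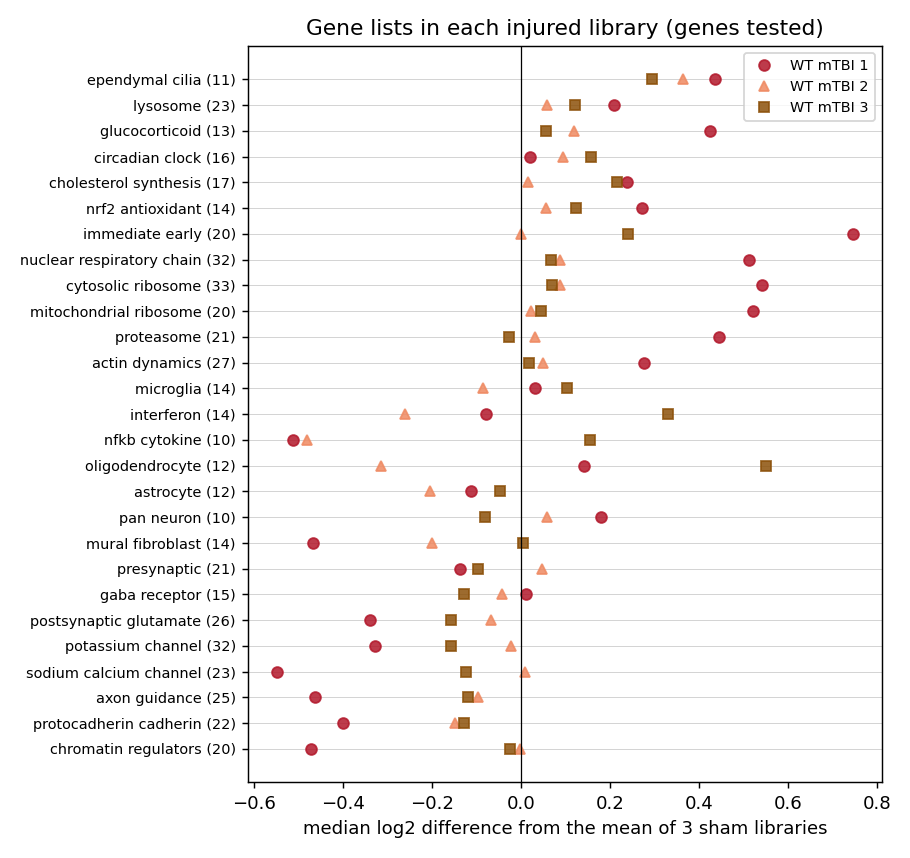
Median log2 difference from the mean of 3 sham libraries (x axis) of 27 gene lists in each injured library, with the number of tested genes in parentheses. The red circles of WT mTBI 1 lie farthest from 0 in the ribosome, proteasome and chromatin lists, where the other 2 libraries are near 0, while the ependymal and lysosome lists are positive and the axon guidance and cadherin lists negative in all 3.

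Further called genes, chosen for this account after their values were seen, lay outside these lists. Scg5, a chaperone gene of neuroendocrine secretory granules, was at 349, 235 and 225 CPM after mTBI and at 109, 106 and 105 CPM in sham (log2 1.34, SE 0.16, adjusted p = 0.00413). Ucp2, a mitochondrial carrier gene, was at 36.3, 35.5 and 38.4 against 16.5, 17.2 and 16.2 CPM (log2 1.14, SE 0.08), and the epithelial keratin gene Krt18 at 5.75, 5.77 and 5.89 against 0.937, 0.717 and 1.03 CPM (log2 2.69, SE 0.18). In both genes the injured libraries were nearly level. Ppp1r1b, the dopamine-signalling phosphatase inhibitor DARPP-32, rose by log2 0.85 (adjusted p = 0.00134), the replication helicase gene Mcm6 by 1.40 (adjusted p = 0.00995) and the cell cycle inhibitor gene Cdkn1c by 1.53 (adjusted p = 0.00335). On the lower side Lrp1b, a lipoprotein receptor-related gene, changed by -0.64 (adjusted p = 0.0300) and the noncoding RNA Kcnq1ot1, whose reads cannot be told from those of the overlapping gene Kcnq1, by -0.55 (adjusted p = 0.0396). Mcm6, Lrp1b and Kcnq1ot1 lost their calls without any one sham library (adjusted p from 0.0578 for Mcm6 to 0.235 for Kcnq1ot1), Lrp1b and Kcnq1ot1 also without mTBI replicate 3 (0.0941 and 0.101), and the other 5 kept theirs without any one library.

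Single injured libraries also carried genes of their own. In replicate 1 the heart and muscle actin gene Actc1 was at 5.67 CPM and the myoglobin gene Mb at 4.79 CPM, against 0.513 and 0.472 and 0.385 and 0.547 CPM in replicates 2 and 3. The sham libraries, at 3.84 to 4.00 CPM of Actc1 and 2.47 to 2.94 CPM of Mb, were on the side of replicate 1. The collagen gene Col6a3 was lower in replicate 1, at 2.58 CPM against 13.2 and 16.3 CPM, with sham between at 6.93 to 8.02 CPM.

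Replicates 2 and 3 differed in blood and antibody genes. The antibody genes Igkc and Igha were at 9.21 and 7.74 CPM in replicate 2, at 3.13 and 2.61 CPM in replicate 3 and at 0.532 and 0.354 CPM in replicate 1. The haemoglobin genes Hba-a1 and Hbb-bs were at 39.3 and 105 CPM in replicate 3, at 10.9 and 44.4 CPM in replicate 1 and at 6.95 and 23.3 CPM in replicate 2, with sham at 9.27 to 11.5 and 35.3 to 36.8 CPM. Over the 5 tested red cell genes the summed level was 36.3 to 171 CPM after mTBI and 54.3 to 58.2 CPM in sham, and Slc4a1 was below the filter. The group median of these genes, log2 0.67, was -0.17 without replicate 3. Lcn2, an iron-binding gene of inflammation, was at 5.94 CPM in replicate 3 as in sham (5.57 to 5.94 CPM), and at 0.658 and 1.49 CPM in replicates 1 and 2. Further genes of this kind were Lrat, of retinol storage, at 2.05, 0.308 and 4.60 CPM, the slow muscle troponin gene Tnnt1 at 7.60, 1.44 and 5.82 CPM and Lgr6, a receptor of R-spondins, at 3.04, 13.5 and 4.13 CPM, with sham at 0.055 to 0.210, 1.02 to 1.18 and 13.2 to 14.96 CPM. None of these genes was called between the groups, the smallest adjusted p being that of Lrat (0.0913).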

How the data were processed

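Per the file headers, the authors counted reads over the exons of Ensembl release 98 on GRCm38 with featureCounts 2.0.6, and the deposited values are raw counts per gene without normalization. The command set no option for read pairs, strand or multi-mapping reads, so, by the defaults, each mate gave its own count, reads of either strand were used and reads with several alignments were not. Per the submitters' processing notes, Trim Galore and HISAT2 were also used. Symbols, positions and lengths came from GENCODE M21 by Ensembl identifier (55240 of 55421 matched).

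The 6 libraries were tested with edgeR 4.0.16 in R 4.3.3 (TMM, filterByExpr, two-sided quasi-likelihood F test, 1 spread for both groups, 4 residual and 4.55 prior degrees of freedom, Benjamini-Hochberg over 19389 genes, called at adjusted p under 0.05). Differences per library are of log2 CPM with a prior count of 2. The test was run first on simulated counts. These had the same spread in both groups, so that run does not cover the unequal spread of these libraries. The p-values measure the spread between the libraries as labelled.

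Tmsb4x was always named. Otherwise the rule took the 15 genes of smallest p per direction that were called, averaged 20 counts or more, had separated groups and an established symbol, with the 5 genes of each injured library farthest from the other 2 on log2(CPM + 1), up to 4 members of smallest p per list described and the 2 most abundant markers of cell types, some of which are not reported here. All lists and rules were chosen with earlier results of these data known, so lists are described by counts and medians without a test. Alternatives were DESeq2 1.42.0, limma 3.58.1 voom with weights per sample or per group, RLE factors or library totals in place of TMM, filters removed or made stricter, all 9 libraries in the fit, the replicate number as a block, halved counts, a fold minimum of 1.2 and each library left out in turn.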

Additional observations from a re-analysis of the deposited data

How the results depend on the processing

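The main counts were 253 called, 206 higher and 47 lower. In that order they were 713, 458 and 255 in DESeq2, 915, 582 and 333 in voom with a weight per sample, 423, 281 and 142 with weights by group instead, 496, 355 and 141 without a count filter, 102, 77 and 25 in the fit of all 9 libraries and 161, 141 and 20 with a fold minimum of 1.2. With the sham libraries summed they were 46, 42 and 4, and with the length trend removed 347, 263 and 84, both settings chosen after the data were seen. Leaving out 1 library gave 98 to 1251 called, 87 to 751 higher and 11 to 500 lower, the ends coming from sham replicate 1 and mTBI replicate 1. The cause of these shifts was not tested.

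RLE scaling (251), no composition scaling (251), a stricter filter (207) and halved counts (241) moved the number of calls by less than 1.5 times. The median over all genes stayed between log2 -0.0046 and 0.018 under every setting run. Tmsb4x was called in each, at log2 7.58 to 8.34, and none of the other 29 genes named for their small p changed direction. Outside those, the medians of the oligodendrocyte and red cell lists and the differences of Mbp and Gfap changed sign without mTBI replicate 3, as given above. The fit of all 9 libraries ended the calls of 11 named genes, among them Clic6, Cldn2, Steap1 and Kl.

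The labels do not say whether replicate numbers pair the samples. The deviations of same-numbered libraries correlated at -0.020, 0.010 and -0.025. The sham libraries differed by little more than counting noise, so these values cannot decide whether samples were paired. With the replicate number as a block there were 204 calls, 169 higher and 35 lower, and Nbeal1 and Fam208a lost theirs. The departure over genes of at least 1 CPM was 0.560, 0.416 and 0.448 for mTBI replicates 1, 2 and 3, in the same order as over all tested genes.

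Genes below 1 CPM rest on few counts.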

Other observations

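Without mTBI replicate 1, further genes of small p were separated that the text has not yet described. They were picked after that fit was seen. The serotonin receptor gene Htr2c was at 57.2, 94.6 and 94.4 CPM after mTBI and at 49.4, 50.02 and 47.9 CPM in sham (without replicate 1 log2 0.95, SE 0.04, adjusted p = 1.64e-07; with it adjusted p = 0.0974). The cation channel gene Trpm3 was at 124, 263 and 228 against 117, 118 and 118 CPM (log2 1.06 without replicate 1), and the actin cross-linker gene Flna at 99.1, 183 and 185 against 118, 116 and 115 CPM (log2 0.66). In these 3 genes replicate 1 was near or below sham while replicates 2 and 3 were well above it. The growth factor gene Bdnf was at 39.6, 26.1 and 28.5 against 42.4, 40.8 and 41.4 CPM (log2 -0.60, adjusted p = 0.000205, and 0.275 with replicate 1). The myosin light chain gene Myl2 was at 3.70, 0.718 and 0.646 against 3.15, 2.65 and 2.94 CPM. What sets replicate 1 apart for these genes was not tested.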
